A study of Homo sapiens with 6 samples.

Results

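The 10 genes described here are the markers and regulators widely used to place a cell between the epithelial and the mesenchymal state: the cadherins CDH1, CDH2 and CDH3, the adhesion molecule EPCAM, the intermediate filament gene VIM, and the transcription factors ZEB1, ZEB2, SNAI2, TWIST1 and OVOL1. They were chosen by name, as the rows of the count table whose gene identifier carries one of these symbols, and the rule itself uses no measured value. All 10 were present among 60649 gene rows. 9 of the 10 passed the filter on low counts that left 22038 genes for testing, and TWIST1 did not.

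RNA-seq was performed on the ovarian carcinoma cell line OVCAR5, an established human line, in 2 groups of 3 libraries. In the METTL3 group the cells had been transduced with a lentivirus that expresses METTL3, the catalytic subunit of the complex that writes N6-methyladenosine (m6A) into RNA. In the vector group they had been transduced with an empty lentivirus, and both groups were selected with puromycin as stable lines, so each condition is represented by transduced cells of a single cell line. The series text also calls the controls parental. No source used here says whether the 3 libraries of a group came from separate cultures, so p-values measure the spread between these libraries, which may be technical. The comparison asks how gene expression differed when METTL3 was in excess, without drug treatment being named for these libraries.

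In the epithelial to mesenchymal transition (EMT), cells lose E-cadherin junctions and apical polarity and gain a vimentin cytoskeleton and motility. ZEB1, ZEB2, SNAI2 and TWIST1 repress epithelial genes, among them CDH1, by binding E-box sequences in their promoters, while OVOL1 is an epithelial factor that acts against ZEB1. Ovarian carcinoma cells often carry epithelial and mesenchymal markers together.

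Total counts ranged from 96633925 to 125463386 per library, so counting error was small for all members but CDH2, ZEB2 and TWIST1. Levels are given as CPM, counts scaled to the size of the library with the TMM factors of edgeR. METTL3 itself was measured at 152, 165 and 175 CPM with METTL3 and at 80.6, 68.6 and 71.6 CPM with the vector. All METTL3 libraries therefore exceeded all vector libraries, although the log2 difference of 1.16 ± 0.117 (SE) had an adjusted p of 0.0720 by the quasi-likelihood test of edgeR (Benjamini-Hochberg adjustment over all tested genes), as for every adjusted p below that does not name DESeq2. The libraries with replicate number 1 stood apart from the others in both groups: on the first principal component, which held 40.5% of the variance, they lay at -52.9 (METTL3) and -43.0 (vector), against 6.15 to 40.9 for the other 4. Results are therefore given over all 6 libraries and again without the libraries of number 1. This split was chosen with earlier results of these data known, so p-values of fits that use it are descriptive. Of the 5 epithelial markers, KRT8 reached 3131 to 5153 CPM, while PTPRC, CD3E, DCN and KDR, which define leukocytes, fibroblasts and endothelial cells, did not exceed 0.0708 CPM in any library. Of the 4 mesothelial markers, 3 were higher in every METTL3 library than in any vector library, as were 8.47% of tested genes. The summed level of the list was 107 to 116 CPM with METTL3 against 81.7 to 87.9 CPM with the vector, while WT1 did not exceed 0.204 CPM. The 4 endothelial markers summed to 7.99 to 22.2 CPM with METTL3 and 5.15 to 8.18 CPM with the vector, most of it PECAM1. The fibroblast markers, mainly COL1A1, summed to 17.6 to 20.1 CPM with METTL3 and to 9.32, 20.43 and 20.05 CPM in vector replicates 1, 2 and 3, and the leukocyte markers, mainly CD14, to 7.42 to 11.4 and 7.12 to 10.8 CPM, highest in replicate number 1 of each group. The part of these lists in the results was not tested.

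Compared per kilobase of annotated exon and averaged over the 6 libraries, EPCAM was the highest of the members at 157 CPM per kb, followed by VIM at 65.3 and CDH1 at 47.1. VIM and CDH1 overlapped widely between libraries, at 21.2 to 101 and 30.3 to 72.3 CPM per kb, and their order within a library depended on the group. In vector replicates 1, 2 and 3 VIM was higher, at 51.0, 99.9 and 101 against 33.1, 30.3 and 31.2 for CDH1. In METTL3 replicate 1 VIM was lower (21.2 against 72.3), and in METTL3 replicates 2 and 3 the genes were close (59.6 and 58.9 against 58.9 and 56.9). ZEB1, SNAI2, CDH3 and OVOL1 followed at means of 2.99, 2.87, 2.32 and 1.87 CPM per kb, and their ranges also overlapped. CDH2 and ZEB2 were low, at 0.0201 and 0.0131 CPM per kb with overlapping ranges, and TWIST1, at 0.00176, did not exceed 2 counts in any library. The libraries thus held abundant epithelial cadherin, EPCAM and vimentin RNA together, and bulk RNA does not show whether the same cells carried all of them. Of the 4 EMT repressors among the members, ZEB1 and SNAI2 had the higher levels.

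**Figure D1:**
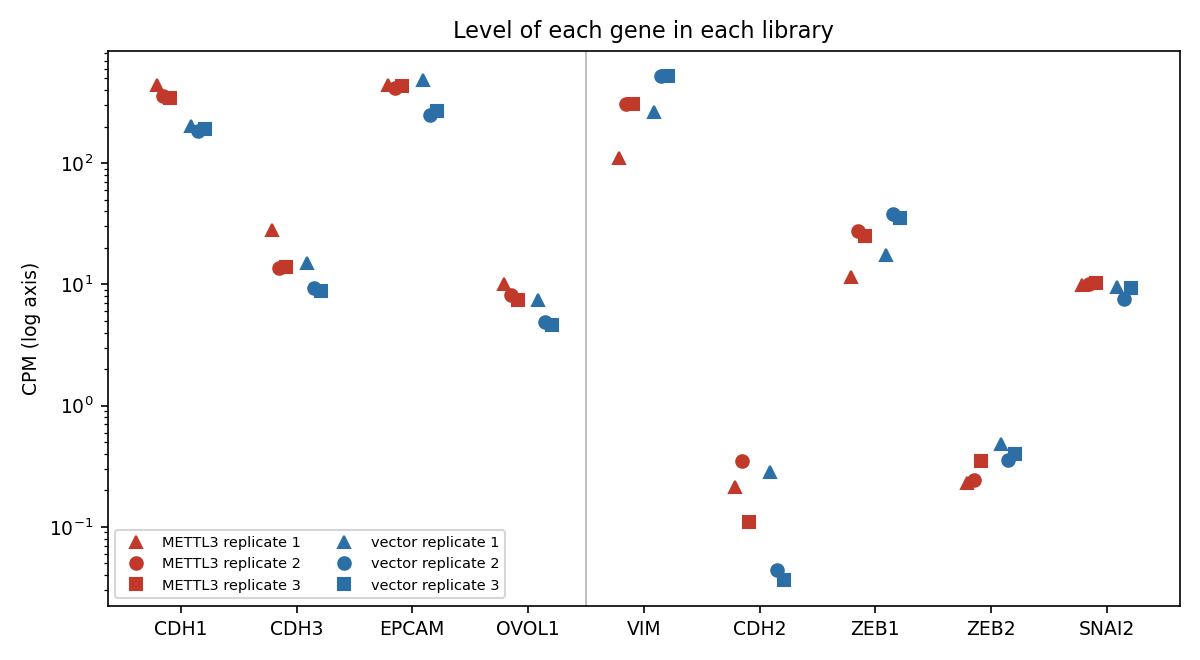
Level of the 9 tested members in each library, in CPM on a log axis. Red marks METTL3 and blue the vector; triangles, circles and squares are replicate numbers 1, 2 and 3, and the line separates epithelial genes (left) from mesenchymal genes and repressors. CDH1, ZEB2 and SNAI2 show no overlap between groups, while for CDH3, EPCAM, OVOL1, VIM and ZEB1 the triangles lie away from the circles and squares of their own group in at least 1 group.

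Over all 6 libraries, CDH1 was about 2-fold higher with METTL3, CDH3, OVOL1 and EPCAM had positive differences, and VIM and ZEB1 had negative ones. None of the 9 tested members passed an adjusted p of 0.05 in edgeR's quasi-likelihood test, and neither did any of the 22038 genes, so the background share was 0%. At an unadjusted p under 0.05, 3 members were higher (CDH1, CDH3 and OVOL1) and 0 were lower, where 4.4% and 3.91% of all tested genes were. By DESeq2 run over all 6 libraries, 1 member was higher (CDH1) and 0 were lower, beside 0.827% and 0.366% of genes. Without replicate number 1, 5 members rose (CDH1, CDH2, CDH3, EPCAM and OVOL1) and 2 fell (VIM and ZEB1) by edgeR, beside 6.66% of genes that rose and 8.59% that fell. DESeq2 on the same 4 libraries, an alternative added after seeing the data, called 4 members higher (CDH1, CDH3, EPCAM and OVOL1) and 2 lower (VIM and ZEB1), beside 8.84% and 9.56% of genes, and gave CDH2 and ZEB2 no adjusted p. The study, which used DESeq2, lists log2 differences of 1.29 for METTL3 and 0.70 for PECAM1 in its supplement. The 4-library DESeq2 fit gave 1.29 and 0.70, and the 6-library DESeq2 fit gave 1.18 and 1.09. For these genes the study's values thus match the fit without replicate number 1, although the paper does not name the libraries used. In each replicate number taken singly, 4 members were higher with METTL3 in all 3 numbers (CDH1, CDH3, OVOL1 and SNAI2) and 3 were lower in all 3 (VIM, ZEB1 and ZEB2), where 19.6% and 20% of tested genes were. These shares describe the members and are not a test of the list. In bulk RNA, fewer cells of a type and less RNA per cell cannot be told apart.

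CDH1 encodes E-cadherin, the calcium-dependent adhesion molecule of epithelial adherens junctions, and lies at chr16:68737292-68835537 on the plus strand (GRCh38, GENCODE 44). It was measured at 439, 358 and 346 CPM in METTL3 replicates 1, 2 and 3 and at 201, 184 and 189 CPM in the vector replicates. The lowest METTL3 library lay far above the highest vector library, and the group means were 381 ± 50.7 and 192 ± 8.72 CPM (SD, n = 3). The fold of these means was 1.99.

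The fitted log2 difference of CDH1 was 0.99 ± 0.131 (SE), with an unadjusted p of 4.9e-05 that ranked 6 of all 22038 genes and an adjusted p of 0.170 by edgeR's quasi-likelihood test. An exact two-sided permutation test of the 6 CPM values gave p = 0.1, the smallest that 3 against 3 libraries allow. CDH1 passed the threshold in the fit of replicates 2 and 3 alone (log2 difference 0.91, edgeR adjusted p = 7.46e-08), by DESeq2 over 6 libraries (1.01, adjusted p = 6.67e-07), and without vector replicate 1 (1.03, edgeR adjusted p = 0.0205). It did not pass when any other single library was left out (edgeR adjusted p from 0.246 to 0.904). Nor did it pass with other size factors, a stricter filter, counts divided by 2, or the GC and length trend removed (edgeR adjusted p from 0.136 to 0.186). The difference within a replicate number was 1.13, 0.96 and 0.87 on the log2 CPM scale for numbers 1, 2 and 3. The level of CDH1 in replicate number 1 against numbers 2 and 3 differed by 0.21 ± 0.0966 (SE, edgeR adjusted p = 0.201).

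CDH3 encodes P-cadherin, a classical cadherin of basal epithelial layers, and is the neighbour of CDH1 on the same strand, at chr16:68636189-68727468, with 9823 bases between the genes. Its levels were 28.3, 13.6 and 13.8 CPM with METTL3 and 14.9, 9.29 and 8.88 CPM with the vector. Vector replicate 1 lay above METTL3 replicates 2 and 3, so the groups overlapped, although METTL3 was higher within every replicate number. The log2 difference was 0.75 ± 0.324 (SE, edgeR adjusted p = 0.599) over 6 libraries and 0.59 ± 0.0821 (edgeR adjusted p = 0.000180) in replicates 2 and 3. CDH3 also rose by 0.89 ± 0.108 in replicate number 1 against the others (edgeR adjusted p = 0.00663), a call lost without METTL3 replicate 2 (adjusted p = 0.0541) or vector replicate 3. The ratio of CDH1 to CDH3 counts was 15.5, 26.3 and 25.1 with METTL3 and 13.5, 19.8 and 21.3 with the vector, lowest in both groups in number 1.

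EPCAM, a cell surface adhesion molecule of simple epithelia and carcinomas (chr2:47345158-47387601, plus strand), was at 437, 414 and 432 CPM with METTL3 and at 483, 247 and 271 CPM with the vector. The highest of the 6 values was thus a vector library, replicate 1, while vector replicates 2 and 3 were the lowest. Over all libraries the log2 difference was 0.36 ± 0.240 (SE, edgeR adjusted p = 0.672). In replicates 2 and 3, EPCAM rose by 0.71 ± 0.0577 (edgeR adjusted p = 1.67e-06), and without vector replicate 1 alone by 0.73 ± 0.0869 (edgeR adjusted p = 0.0207). Within replicate number 1 the difference was -0.14 on the log2 CPM scale, and the difference between the number 1 effect and that of numbers 2 and 3 passed the test (interaction -0.85 ± 0.0972, edgeR adjusted p = 6.37e-05).

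OVOL1 encodes a zinc finger transcription factor that maintains epithelial identity (chr11:65787063-65797214, plus strand). It was measured at 10.1, 8.18 and 7.39 CPM with METTL3 and at 7.48, 4.92 and 4.65 CPM with the vector. Only vector replicate 1 reached into the METTL3 range, and METTL3 was higher in each number, by 0.44, 0.73 and 0.67 on the log2 CPM scale. The fitted difference was 0.59 ± 0.224 (SE, edgeR adjusted p = 0.565) over 6 libraries and 0.70 ± 0.105 (edgeR adjusted p = 0.000348) in replicates 2 and 3. OVOL1 rose by 0.51 ± 0.121 in replicate number 1 (edgeR adjusted p = 0.0425), a call lost without any one of replicates 2 and 3 of either group (adjusted p up to 0.185). Of its exon bases, 27.3% overlapped a gene of the other strand, and since the strand setting of the counting is not given in the sources used here, reads of the 2 strands cannot be told apart there.

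VIM encodes vimentin, the intermediate filament protein of mesenchymal cells, and ZEB1 a zinc finger repressor of CDH1. Both were lower with METTL3 in each replicate number and lower again in replicate number 1 of each group. Start site windows from RefSeq (GRCh38.p14, 300 bases around a start) are shown for this pair because they moved together between libraries. The window of VIM was chr10:17227991-17228290 and the ZEB1 window with the most matches was chr10:31318966-31319265, both on the plus strand and printed 5′ to 3′, with capitals marking CACCTG or CAGGTG, the E-box bound by ZEB and SNAI proteins, searched on both strands (each is the reverse complement of the other). The table held 7 windows for ZEB1, 2 for CDH2 and 1 each for VIM and ZEB2. CDH1, CDH3, EPCAM, SNAI2, TWIST1 and OVOL1 were not in it.
VIM: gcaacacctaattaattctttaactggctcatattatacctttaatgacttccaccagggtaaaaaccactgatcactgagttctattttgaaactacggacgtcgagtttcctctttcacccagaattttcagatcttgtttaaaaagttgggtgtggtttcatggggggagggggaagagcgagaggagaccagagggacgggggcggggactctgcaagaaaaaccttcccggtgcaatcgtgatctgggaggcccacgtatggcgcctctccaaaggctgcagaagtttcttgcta
ZEB1: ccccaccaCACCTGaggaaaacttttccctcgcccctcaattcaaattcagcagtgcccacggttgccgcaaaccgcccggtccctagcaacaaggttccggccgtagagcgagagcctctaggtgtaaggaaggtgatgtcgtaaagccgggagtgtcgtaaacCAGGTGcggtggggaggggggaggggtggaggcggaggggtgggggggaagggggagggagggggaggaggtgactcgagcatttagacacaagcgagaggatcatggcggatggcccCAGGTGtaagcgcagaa

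The ZEB1 window held 3 matches, which began at -242, -85 and 33 from the start site, and the VIM window held 0. At least 1 match was present in 20.6% of 35116 RefSeq windows and at least 3 in 0.635%, shares of single windows that cannot be set against the ZEB1 window, which was picked as the highest of 7. Of the other windows of the members, 1 further ZEB1 window held 1 match. A match is a description of the letters and does not show that a factor was bound.

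VIM (chr10:17228241-17237593, plus strand) was measured at 110, 309 and 305 CPM with METTL3 and at 264, 517 and 522 CPM with the vector. Replicate 1 was the lowest library of each group, at well under the level of its group's other libraries, and vector replicate 1 lay below METTL3 replicates 2 and 3. Within a replicate number METTL3 was always lower, by -1.27, -0.74 and -0.78 on the log2 CPM scale.

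The fitted log2 difference of VIM was -0.85 ± 0.40 (SE), which did not pass the threshold over 6 libraries (edgeR adjusted p = 0.617). In replicates 2 and 3 VIM fell, with a log2 difference of -0.76 ± 0.0501 (edgeR adjusted p = 3.24e-07). In replicate number 1 against the others it also fell, with -1.22 ± 0.137 (edgeR adjusted p = 0.00542), a call kept when any single library was left out. The METTL3 difference was more negative in number 1 than in numbers 2 and 3 (interaction -0.51 ± 0.0842, edgeR adjusted p = 0.000620). Of the VIM exon bases, 24.6% overlapped a gene of the other strand.

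ZEB1 (chr10:31318495-31529814, plus strand) was measured at 11.5, 27.7 and 25.1 CPM with METTL3 and at 17.5, 38.2 and 35.5 CPM with the vector. As for VIM, replicate 1 was the lowest of each group and vector replicate 1 fell below METTL3 replicates 2 and 3, so that the groups overlapped. The log2 difference was -0.50 ± 0.370 (SE, edgeR adjusted p = 0.697) over 6 libraries and -0.48 ± 0.0694 (edgeR adjusted p = 0.000253) in replicates 2 and 3. In replicate number 1 against the others ZEB1 fell, with -1.14 ± 0.102 (edgeR adjusted p = 0.00315), and the call was kept when any single library was left out. For ZEB1 no difference in the METTL3 effect between replicate numbers was detected (interaction -0.13 ± 0.128, edgeR adjusted p = 0.499).

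**Figure D2:**
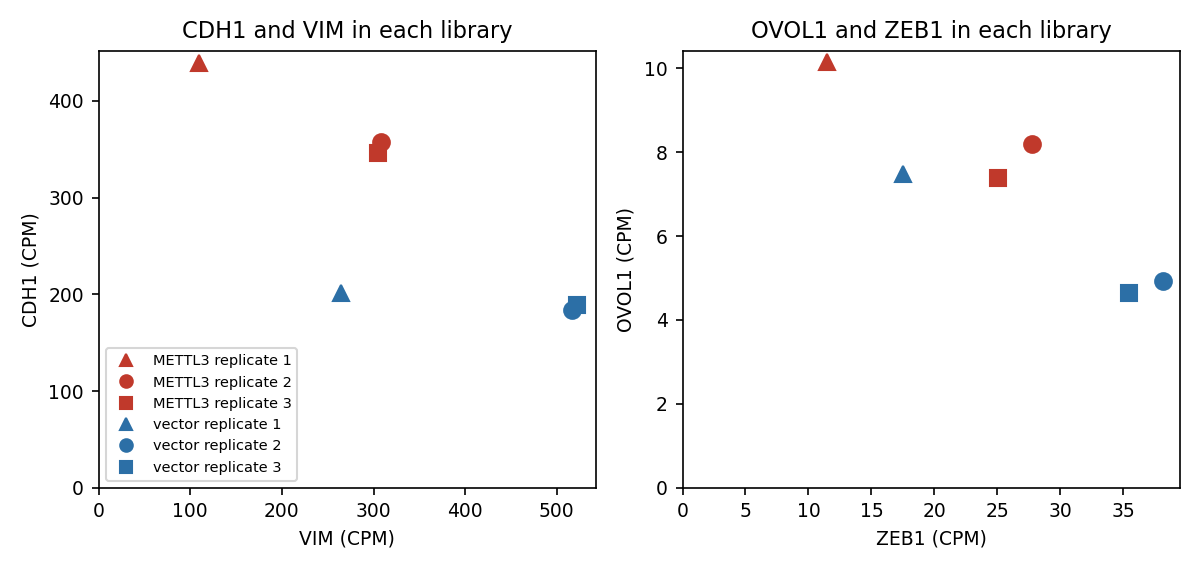
CDH1 against VIM (left) and OVOL1 against ZEB1 (right) in each library, in CPM on linear axes from 0. Red marks METTL3 and blue the vector, with triangles, circles and squares for replicate numbers 1, 2 and 3; METTL3 replicate 1 lies at the highest CDH1 (439 CPM) and lowest VIM (110 CPM), and vector replicate 1 lies left of the other vector libraries at nearly their CDH1 level.

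Ratios of counts within a library do not depend on scaling. The CDH1 to VIM ratio was 4.0, 1.16 and 1.13 with METTL3 and 0.761, 0.356 and 0.363 with the vector. The 3 METTL3 libraries thus all had a higher ratio than the 3 vector libraries, and number 1 had the highest of each group. The OVOL1 to ZEB1 ratio was 0.885, 0.295 and 0.295 with METTL3 and 0.427, 0.129 and 0.131 with the vector, so vector replicate 1 overlapped the METTL3 group. The CDH1 to ZEB1 ratio was 38.3, 12.9 and 13.8 against 11.5, 4.82 and 5.34, and there the lowest METTL3 library lay above the highest vector library.

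ZEB2, a paralog of ZEB1 (chr2:144364364-144521057, minus strand), rested on 26, 30 and 35 counts with METTL3 and 46, 40 and 44 with the vector. This corresponds to 0.230, 0.242 and 0.347 CPM against 0.485, 0.354 and 0.398 CPM, with no overlap between groups. The log2 difference was -0.59 ± 0.317 (SE, edgeR adjusted p = 0.637) over 6 libraries and -0.36 ± 0.371 (edgeR adjusted p = 0.597) in replicates 2 and 3, and at these counts a difference of this size was not resolved. Groups that did not overlap were found for 2 members with METTL3 higher (CDH1 and SNAI2) and 1 with METTL3 lower (ZEB2), beside 8.47% and 8.93% of tested genes.

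SNAI2 encodes SLUG, a zinc finger repressor of CDH1 (chr8:48917598-48921740, minus strand). It was at 9.79, 10.0 and 10.3 CPM with METTL3 and 9.45, 7.57 and 9.41 CPM with the vector. The METTL3 libraries were all higher, but by as little as 0.05 on the log2 CPM scale in replicate number 1. The log2 difference of 0.19 ± 0.146 (SE) had an edgeR adjusted p of 0.712, and in replicates 2 and 3 it was 0.26 ± 0.106 (edgeR adjusted p = 0.127). In replicate number 1 against the others SNAI2 did not pass the test (0.05 ± 0.128, edgeR adjusted p = 0.840).

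CDH2 encodes N-cadherin, the cadherin of neural and mesenchymal cells (chr18:27932879-28177946, minus strand), and was close to absent with 24, 43 and 11 counts with METTL3 and 27, 5 and 4 with the vector. The highest vector library, replicate 1, exceeded METTL3 replicates 1 and 3, and the log2 difference was 0.92 ± 0.789 (SE, edgeR adjusted p = 0.742). In replicates 2 and 3 CDH2 rose by 2.49 ± 0.720 (edgeR adjusted p = 0.0305), on the 5 and 4 counts of the vector.

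TWIST1, a basic helix-loop-helix repressor (chr7:19020991-19117636, minus strand), had 0 counts in 5 libraries and 2 in vector replicate 1. A count of 0 allows a level of up to 0.0242 to 0.0297 CPM in those 5 libraries, at 3 counts per library and for counting error only. Low counts were mostly even in every library. If both mates of a read pair were counted, the counts stand for fewer fragments, so this limit would be higher and the counts of CDH2 and ZEB2 less precise than their size implies. No fold is therefore given for TWIST1.

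**Figure D3:**
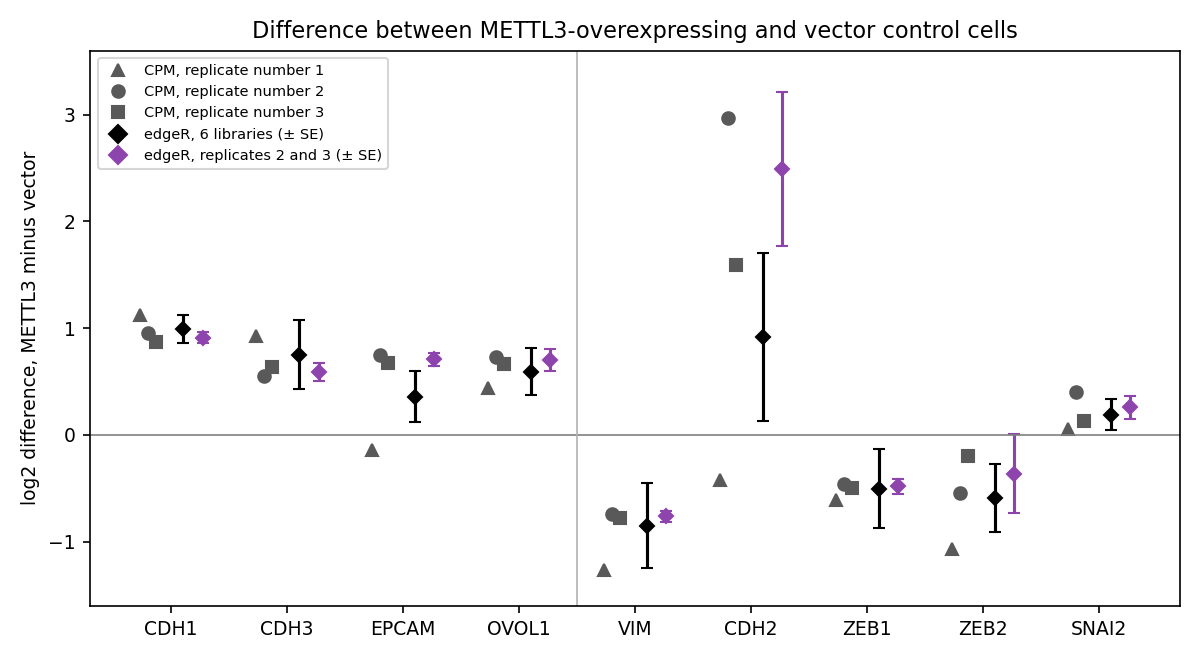
Log2 difference between METTL3 and vector for the 9 tested members. Grey symbols are single replicate numbers in CPM, black diamonds the edgeR fit over 6 libraries and purple diamonds the fit over replicates 2 and 3, with SE bars; the bars of the 6-library fit are wider than those of replicates 2 and 3 for all but ZEB2, and the grey triangle of EPCAM lies below 0.

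With the replicate number added to the model as a block, 0 members and 0% of genes passed an adjusted p of 0.05 by edgeR, and CDH1 had an adjusted p of 0.102. At an unadjusted p under 0.05 the block gave 3 members higher (CDH1, CDH3 and OVOL1) and 2 lower (VIM and ZEB1), against 6.05% and 5.2% of genes. With no filter on low counts, edgeR called CDH1 and CDH3 higher and VIM lower (adjusted p = 4.38e-08, 0.00284 and 2.56e-05), beside 0.782% of 43096 genes higher and 0.517% lower. In that unfiltered fit the SE was nearly the same for CDH1, EPCAM and VIM (0.153, 0.152 and 0.153). With the filter it was 0.131, 0.240 and 0.40. The unfiltered p-values therefore did not follow each gene's own spread between libraries, and these calls are descriptive. Leaving out vector replicate 1 alone, edgeR called CDH1 and EPCAM higher and 0 members lower, beside 0.676% and 0.946% of genes. The direction of each of the 9 members in the comparison of METTL3 with vector was the same under all alternatives run.

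The contrast of replicate number 1 with numbers 2 and 3 compares libraries that the labels distinguish only by number. It was chosen because the number 1 libraries stood apart in earlier results of these same data. Its adjusted p-values therefore describe this split and are not an independent test. In this contrast, 2 members rose (CDH3 and OVOL1) and 2 fell (VIM and ZEB1) by edgeR, beside 4.25% and 4.81% of tested genes. EPCAM (0.50 ± 0.182, SE) and CDH1 had positive differences that did not pass. In the test of whether the METTL3 effect differed between number 1 and the others, 0 members passed with a higher effect and 2 with a lower one (EPCAM and VIM), beside 14.7% and 15.5% of genes, so the members' shares were not far from those of all genes. This count depended on the setting. CDH1 passed with a higher effect by DESeq2 (0.24, adjusted p = 0.0348). By edgeR it passed with other size factors, at least 10 counts in every library, or counts divided by 2 (adjusted p from 0.03845 to 0.04547), but not with no filter. CDH3 passed with a higher effect with at least 10 counts required in every library (0.38, edgeR adjusted p = 0.0386) or counts divided by 2. CDH2 passed with a lower one with no filter on low counts (-2.87, edgeR adjusted p = 0.0333) or counts divided by 2. All of these genes also passed in some fits with a library left out. The interaction test rests on a single library per group in number 1, which is assumed to vary like numbers 2 and 3. Whether culture, library preparation or another property set the number 1 libraries apart was not tested.

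Across the 6 libraries, log2 CPM of VIM and CDH3 had a Pearson r of -0.999, VIM and ZEB1 of 0.967, and CDH3 and OVOL1 of 0.930. CDH1 was less closely tied to VIM, at -0.770. These are descriptions of 6 points that share the split by group and by replicate number. Of 14684 genes with a mean of at least 1 CPM, those whose pattern was most like CDH1 were TGFBR2, SLC2A1 and SPDEF (r = 0.997, 0.996 and 0.996), and those most like VIM were SLC25A30, BASP1 and C9orf40 (r = 0.998, 0.998 and 0.998). TGFBR2, a TGF-beta receptor subunit, was at 280, 247 and 239 CPM with METTL3 and 190, 180 and 181 CPM with the vector, with no overlap.

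METTL3 methylates adenosine in short sequence contexts such as GGACT, and m6A itself was not measured in these libraries. The longest annotated transcript of CDH1 held 6 GGACT, or 1.25 per kb, and that of VIM held 0. Over 21986 tested genes the median was 0.910 per kb, and 15.05% held none. The other members held 2 to 6, and the count says nothing on whether a site is methylated.

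Genes that work with the members were followed in lists chosen by function. Of 14 epithelial transcription factors and splicing regulators, 13 were tested, and all 13 had positive log2 differences with METTL3 (median 0.45, against -0.02 over all tested genes). None passed in edgeR over 6 libraries, 5 were higher at an unadjusted p under 0.05 (4.4% of all tested genes), and DESeq2 called 2 higher (0.827% of genes). In replicates 2 and 3, 8 rose and 0 fell by edgeR, beside 6.66% and 8.59% of all genes tested in that fit. GRHL2, which activates CDH1 and OVOL1 in epithelia, was at 64.2, 54.0 and 51.1 CPM with METTL3 and 46.2, 31.2 and 28.5 CPM with the vector, with no overlap and a log2 difference of 0.68 (edgeR adjusted p = 0.450). ESRP1, the epithelial splicing regulator, rose by 0.65 in replicates 2 and 3 (edgeR adjusted p = 1.51e-06) and had a lower METTL3 effect in number 1 (interaction -0.58). EHF, ELF5 and GRHL2 rose in replicate number 1, by 0.48, 0.95 and 0.46. The other factors with the highest levels or calls had 6-library log2 differences of 0.22 (ELF3), 0.51 (KLF4) and 0.39 (GRHL3), none past the test. GRHL3 was higher with METTL3 in replicate number 1 only, and its difference in replicates 2 and 3 was -0.27 (edgeR adjusted p = 0.544).

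Of 26 epithelial adhesion, polarity and keratin genes, all were tested and all 26 had positive differences (median 0.40). By edgeR, 12 of them were higher at an unadjusted p under 0.05 (4.4% of all tested genes) and 0 at an adjusted p under 0.05. DESeq2 called 5 higher (0.827% of genes). Without replicate number 1, 24 rose and 0 fell (6.66% and 8.59% of all tested genes), and in replicate number 1 against the others 16 rose and 0 fell (4.25% and 4.81% of all tested genes). The keratins KRT8 and KRT18, the most abundant, had log2 differences of only 0.04 and 0.06 over 6 libraries. RAB25 and MAL2, which act in apical membrane transport, resembled EPCAM: MAL2 was at 537, 390 and 399 CPM with METTL3 and 694, 254 and 257 CPM with the vector, highest in vector replicate 1. MUC1 was the reverse, with its lowest value, 26.96 CPM, in vector replicate 1 and 148 CPM in METTL3 replicate 1. CD24 rose by 1.16 in replicate number 1 (edgeR adjusted p = 0.00193), and its METTL3 difference of 0.20 did not pass the test.

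**Figure D4:**
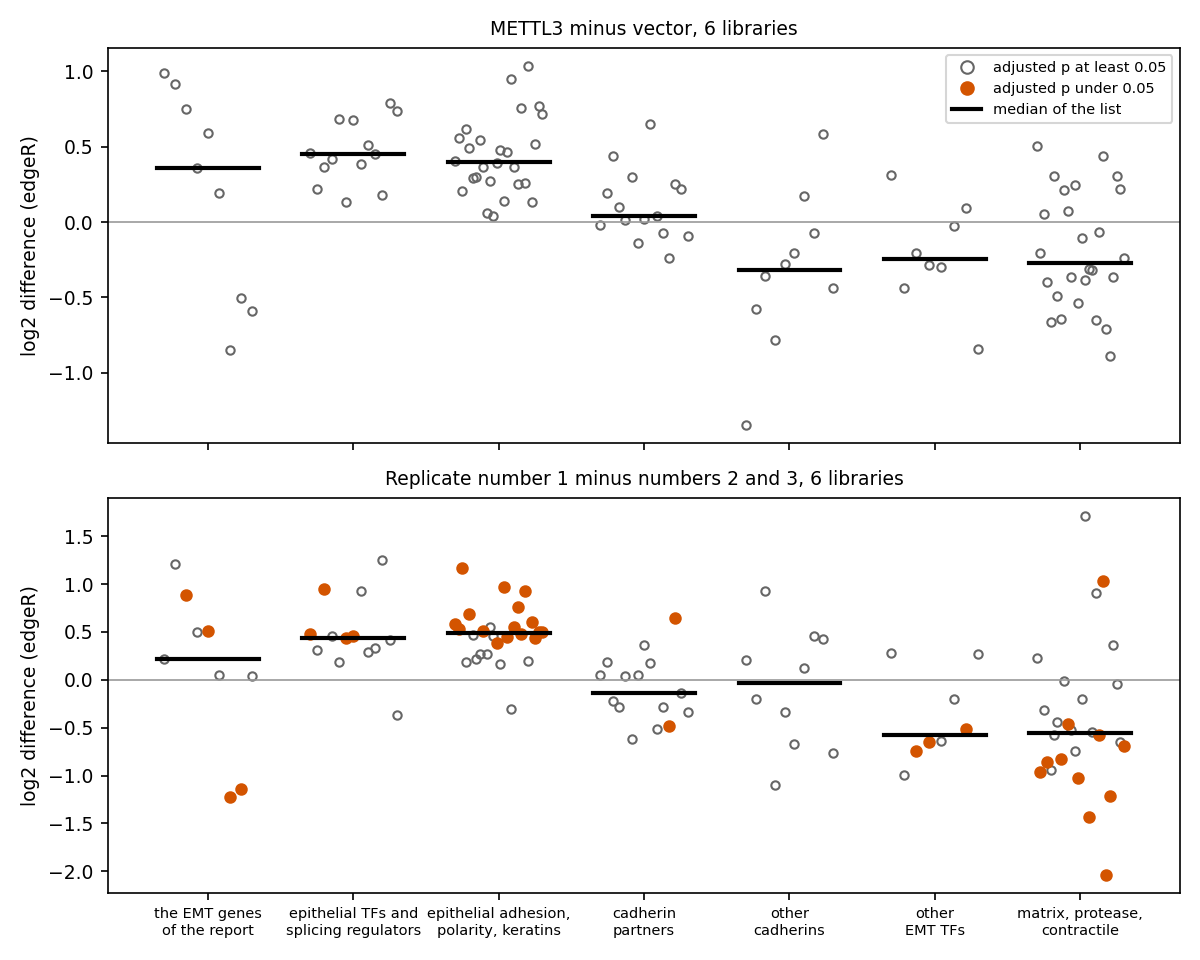
Log2 differences fitted by edgeR over 6 libraries for the members and for 6 lists of related genes, between METTL3 and vector (top) and between replicate number 1 and numbers 2 and 3 (bottom). Each point is a gene, filled where its adjusted p was under 0.05, and the bars are medians; the epithelial lists lie above 0 in the top panel (medians 0.45 and 0.40) with no filled point, and 16 epithelial adhesion genes are filled in the bottom panel.

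Of 13 further EMT transcription factors 8 were tested, with 2 positive and 6 negative differences (median -0.25). For replicates 2 and 3 alone, 3 fell, SNAI1 and HMGA2 among them, and 0 rose (8.59% and 6.66% of all tested genes). In replicate number 1, 3 fell, HMGA2 and TCF3 among them, and 0 rose (4.81% and 4.25%). SNAI1, the SNAIL repressor, was at 5.83, 7.16 and 7.65 CPM with METTL3 and 5.22, 10.1 and 10.0 CPM with the vector. FOXC1 went the other way, at 14.6 to 21.2 CPM with METTL3 and 13.2 to 14.3 CPM with the vector, and SNAI3 differed by -0.03.

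Of 29 matrix, protease and contractile genes 26 were tested, with 9 positive and 17 negative differences (median -0.27). Of these, 2 rose and 10 fell in replicates 2 and 3, where 6.66% and 8.59% of all tested genes did, and 1 rose and 10 fell in replicate number 1, where 4.25% and 4.81% did. SPARC, a matrix glycoprotein, and CD44, a hyaluronan receptor, had their lowest library of each group in replicate number 1, as VIM did, with log2 differences of -0.89 and -0.40 over 6 libraries. TGFBI was higher with METTL3, at 1161 to 1166 and 1069 CPM against 907 to 928 CPM, with no overlap. FN1, COL1A1 and LOX, matrix genes, had differences of 0.21, 0.30 and 0.25, none past the test, and a higher METTL3 effect in number 1, and MMP9 was under 1.2 CPM throughout.

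Of 17 catenins and other cadherin partners 15 were tested, with a median difference of 0.04. Of these, 3 rose and 3 fell in replicates 2 and 3, as did 6.66% and 8.59% of all tested genes. JUP, the plakoglobin that links cadherins to filaments, was at 304, 230 and 207 CPM with METTL3 and 147, 168 and 158 CPM with the vector, with no overlap, while CTNNA1, alpha-catenin, and ADAM10, the protease that sheds E-cadherin, differed by 0.02 and -0.02. The nectins NECTIN1, NECTIN2, NECTIN3 and NECTIN4 had 6-library differences from -0.24 to 0.26. Of 20 other cadherins 10 were tested, 2 with positive and 8 with negative differences, and in replicates 2 and 3, 4 fell (CDH15, CDH17, CDH23 and CDH24) and 0 rose, beside 8.59% and 6.66% of all tested genes.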

How the data were processed

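RNA-seq counts of OVCAR5 cells were analysed, 3 libraries with METTL3 and 3 with vector. The authors aligned reads to hg38 with hisat2 and used Subread for counting, and the deposited values are raw whole-number counts per gene; versions, annotation release and strand setting are not given in the sources used here. The sources differ on the kit and on read layout (single-end or paired-end), and 67.6% to 70.5% of counts from 1 to 20 were even. Mitochondrial genes held 0 counts. Rows were named from GENCODE 44 by identifier without version, which matched 60507 of 60649. Every sample column was mapped by its name.

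Genes kept by filterByExpr (edgeR 4.0.16 in R 4.3.3) were scaled by TMM and tested with the quasi-likelihood functions glmQLFit (robust) and glmQLFTest. P-values were adjusted after Benjamini and Hochberg over all tested genes with a threshold of 0.05, and SE was taken as the log2 difference over the square root of F. CPM used TMM library sizes, and correlations log2 CPM with a pseudocount (prior count) of 2. DESeq2 1.42.0 was an alternative, since the study used it. Scripts were tested on simulated data. Alternatives were size factors, filters, counts divided by 2, a GC and length trend, and leaving out libraries.

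Replicate numbers were assumed to pair the libraries: deviations from group means correlated at 0.334, 0.120 and 0.175 for numbers 1, 2 and 3, each above 0.1. Numbers 2 and 3 correlated at 0.205 and 0.133 with each other across groups, so the values do not tell number 2 from number 3. Deviations from a group mean sum to 0, so number 1 standing apart in both groups itself draws numbers 2 and 3 together. Differences within a replicate number and the block model rest on this assumed pairing.

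All members were named. From each list, at most 3 genes past the threshold per test by size of difference, and the 2 highest by mean CPM, were named, with GENCODE symbols, plus the 3 genes most like CDH1 and VIM; 3 genes of the lists are not reported here. Members, lists and the split by replicate number were chosen with earlier results of these data known.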

Additional observations from a re-analysis of the deposited data

Results flagged for a closer look

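For 2 of the genes the METTL3 effect differed between replicate number 1 and numbers 2 and 3 by edgeR's test of the difference itself. Over all tested genes 14.7% passed with a higher and 15.5% with a lower effect, so such a difference was common. For EPCAM the interaction was -0.8525 on the log2 scale, with vector replicate 1 the highest of all libraries at 483 CPM. For VIM it was -0.5065, with METTL3 replicate 1 the lowest of all libraries at 110 CPM. Each rests on 1 library per group in number 1, and what set those libraries apart was not tested.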

How the results depend on the processing

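The count of genes called between METTL3 and vector was 0 and moved to 225 by DESeq2 (156 higher, 69 lower), 560 with no filter on low counts, 3362 in replicates 2 and 3 (3095 by DESeq2, added after seeing the data), and 1 with the GC content and transcript length trend removed; leaving out a library gave 0 to 367, the latter without vector replicate 1. The replicate block gave 0 and changed no call of a member or of METTL3 (0.98 for CDH1). For replicate number 1 the count was 1997 (936 higher, 1061 lower) and moved to 3137 by DESeq2 (1072 higher, 2065 lower) and 4220 with no filter; leaving out a library gave 233 (without vector replicate 3) to 9028 (without METTL3 replicate 1). The interaction count of 6652 stayed between 5541 and 7548.

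Of the single-gene values for METTL3 against vector, 124 kept their side of the threshold, 25 came to pass it and 0 reversed. In the replicate number 1 comparison 78 kept theirs, 5 came to pass, 6 no longer passed and 9 reversed, none of them a called value: CDH2 without vector replicate 1 (-0.1242), SNAI2 without vector replicates 1 and 2 (-0.05872 and -0.05458), and ZEB2 by DESeq2 (-0.01249), with no filter (-0.00336), and without METTL3 replicate 2 (-0.04601) or vector replicate 1 (-0.345), 2 (-0.0783) or 3 (-0.004151). For the interaction 66 kept theirs, 14 came to pass and 0 reversed. Over single libraries left out, the highest values were 2.746 for CDH2, 0.1128 for SNAI2 and 0.3245 for ZEB2, each without METTL3 replicate 1. The cause was not tested. Low counts limited CDH2, ZEB2 and TWIST1.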
